A study of Arabidopsis thaliana with 3 samples.

Results

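Sugar, nutrient and solute transporter genes were examined in the quiescent center (QC), the few slowly cycling cells that root stem cells of Arabidopsis surround. Members were chosen by name alone, as genes whose probe set names exactly 1 gene with a symbol from 27 transporter families (SWEET, SUC, STP, OCT, NRT, PHT, AMT, KUP, HAK, CNGC, GLR, CAX, CHX, ZIP, OPT, YSL, DTX, SULTR and the ABC subfamilies ABCA to ABCI). This gave 33 of 13356 named genes, each with 1 probe set, in 6 families: 14 SWEET, 7 GLR, 6 CHX, 3 OCT and 2 ZIP genes, and 1 NRT gene. No probe set that names 1 gene carried a symbol of the other 21 families, among them all ABC subfamilies, so these were not analysed here, nor were 283 of the 316 RefSeq genes whose symbols fit the rule. By symbol, SWEET was close to complete with 14 of 15 RefSeq genes, while GLR had 7 of 18, CHX 6 of 22, OCT 3 of 6, ZIP 2 of 13 and NRT 1 of 14.

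All samples form 1 group. Roots of Col-0 plants with the WOX5:GFP reporter, in which a QC promoter drives GFP, were digested to protoplasts 5 days after stratification. GFP-positive protoplasts were collected by cell sorting, and amplified RNA of 3 such samples was hybridised to 1 array each. No other cell type, genotype or treatment was on the arrays, and every sample had passed through wall digestion, whose effect cannot be told apart from that of cell type. Whether separate plants gave the samples is not stated in the labels, so no p-value speaks for more than these 3 samples. Their scatter may be technical, and precision is limited by their number.

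Plant cells move sugars and ions through carriers and channels in the plasma membrane and in the tonoplast, the membrane of the vacuole. SWEET proteins are uniporters that let sugars pass in either direction down a gradient. GLR proteins are cation channels related to animal glutamate receptors, CHX proteins exchange cations such as potassium for protons, OCT proteins carry organic cations such as carnitine, ZIP proteins carry zinc and other metal ions, and NRT proteins carry nitrate. The QC holds the stem cells around it undifferentiated, and sugars reach the root tip from the phloem.

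Values are MAS5 signals, a linear intensity per probe set. To ask which genes gave more signal than most of a set of genes of unrelated organs, each array was given a background level, the 90th percentile of 6 flower and pollen genes. The level stood at a signal of 23.6, 44.9 and 49.0 on replicates 1 to 3, chiefly through the tapetum gene AMS. AMS itself gave 48.4, 59.7 and 99.4, above the level of each array. A gene over the level can thus be dimmer than AMS, as SWEET2 and GLR3.6 (70.7 each) were on replicate 3. The log2 signal over the level was tested with limma (two-sided, adjusted p under 0.05 over all 13350 genes tested). A gene's variance was taken from a trend over all genes tested, not from its own 3 values, so very small p-values rest on that trend. The error of the level is shared by every gene. A gene called below lay under the background level, which does not show that it is absent. Of 7 listed QC markers only 3 were measured (BBM, JKD and AGL42), and all 3 were called above. So were 7 of 10 measured markers of other root cell types (19 listed), among them the root hair expansins EXPA7 and EXPA18. Of all genes tested, 45.3% were called above. The part that RNA of such cells had in the transporter signals was not tested. The 18 spike-in control probe sets were brighter on replicate 2, by a median of 2.13-fold.

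Few of the transporter genes stood above background. Of the 33 genes, 4 (12.1%) were called above, beside 45.3% of all genes tested, and 16 (48.5%) were called below, beside 25.6% of all genes. The other 13 were not called (limma). In such bulk samples, fewer cells with a transcript and less transcript per cell cannot be told apart. The 4 genes above came from 4 families: SWEET2, GLR3.6, CHX20 and OCT5. The median over the 33 genes was -0.76, -0.94 and -1.71 log2 over background on replicates 1 to 3 (mean -1.14 ± 0.51, SD, n = 3), while over all genes tested it was 1.25, 0.48 and 0.30 (0.68 ± 0.51). The signal exceeded the level of its own array for 12 of the 33 genes on replicate 1, 8 on replicate 2 and 5 on replicate 3 (36.4%, 24.2% and 15.2%). Over all genes tested the shares were 64.6%, 56.4% and 53.8%, also lowest on replicate 3. It did so on all 3 arrays for 5 genes, beside 50.7% of all genes tested, and on none for 20 genes, beside 33.1%. Without replicate 2 the calls of SWEET2, GLR3.6 and CHX20 ended and only OCT5 was called above, beside 38.2% of all genes tested. The values of SWEET2, GLR3.6 and CHX20 were then 1.33, 1.32 and 1.60 log2, against 1.23, 1.26 and 1.62 with all arrays. With the level raised by 1 log2, no gene was called above (0 of 33, limma), beside 34.5% of all genes tested. At the main level 5 genes had an unadjusted p under 0.05 with a positive value.

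**Figure D1:**
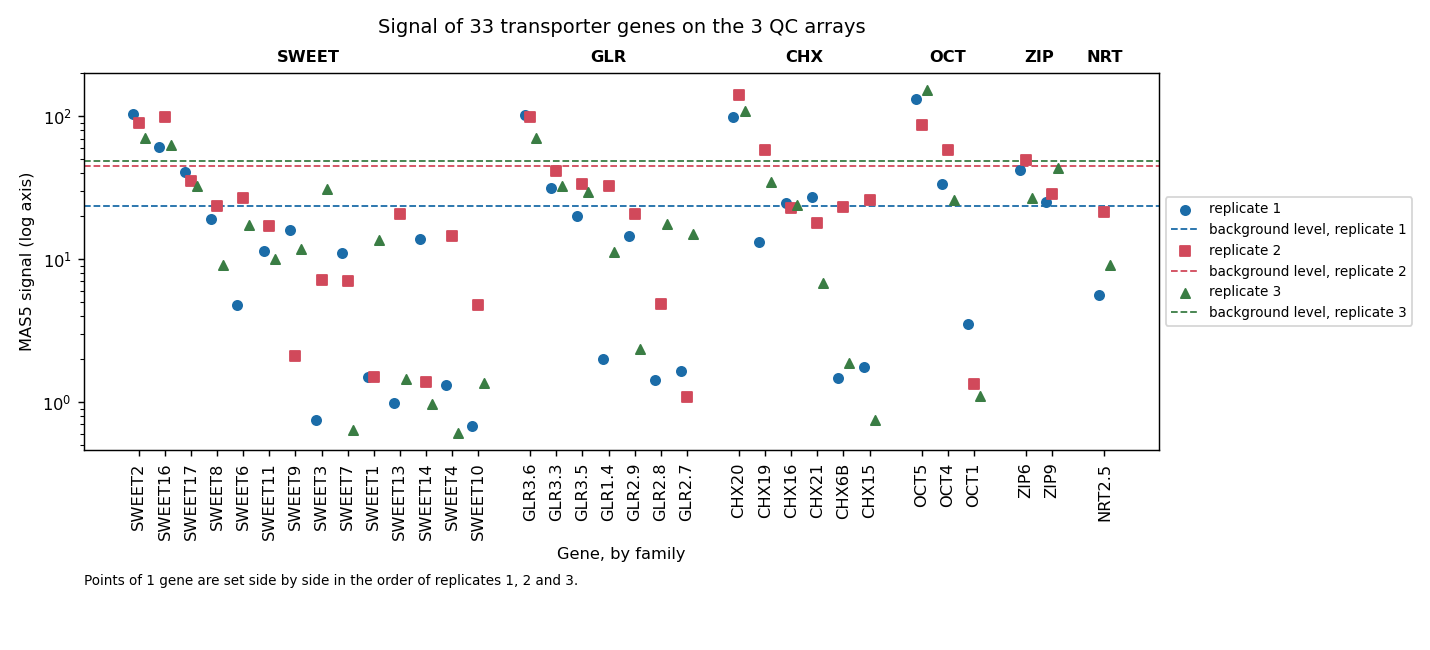
MAS5 signal (log axis) of each of the 33 genes on the 3 arrays, grouped by family, with the background level of each array as a dashed line. SWEET2, GLR3.6, CHX20 and OCT5 lay above the lines on every array with close signals, while most genes under the lines had signals that differed several-fold between arrays.

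**Figure D2:**
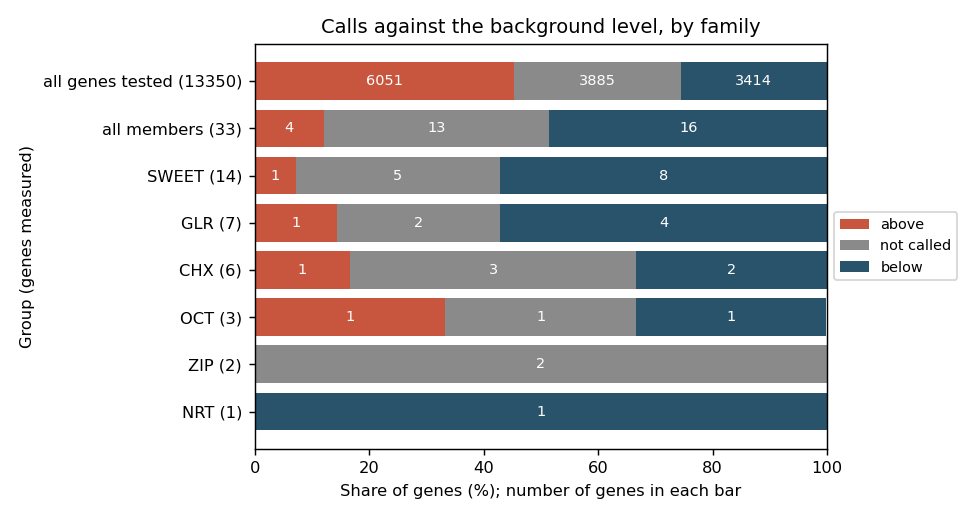
Share of genes called above, below or not called against the background level (limma), for all genes tested and for each transporter family, with the number of genes in each bar. The 33 members had 4 genes above and 16 below.

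In the SWEET family 1 of 14 genes was called above and 8 were called below, beside 45.3% and 25.6% of all genes tested. The family median was -1.58 ± 0.56 log2 (SD over arrays, n = 3). SWEET2 (AT3G14770), a tonoplast sugar transporter known from roots, had signals of 104, 90.5 and 70.7 on replicates 1 to 3. All 3 signals exceeded the highest of the array levels. SWEET2 lay 1.23 ± 0.82 log2 over background (2.34-fold, limma adjusted p = 0.0129). The call was lost when replicate 2 was left out, although the value was not lower (1.33 log2, limma adjusted p = 0.143). It was also lost when the level was set at the 95th percentile of the panel (limma adjusted p = 0.0801) or the variance trend was dropped (limma adjusted p = 0.0616).

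SWEET16 (AT3G16690) and SWEET17 (AT4G15920) form clade IV of the family and move fructose and other sugars across the tonoplast. SWEET16 had signals of 61.4, 99.6 and 63.0, above the level of every array. It was not called at 0.97 ± 0.53 log2 (limma adjusted p = 0.0647), but was called above in 9 of 15 alternatives, with the background taken from pseudogenes among them (1.38 log2, limma adjusted p = 0.000189). SWEET17 had signals of 41.0, 35.1 and 32.6 and was not called at -0.05 ± 0.74 log2. It exceeded the level on replicate 1 alone, and its signal varied by no more than 1.26-fold between arrays.

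The 3 SWEET genes with the highest values over background were thus the 3 whose proteins are known from the tonoplast. Their median was 0.92 ± 0.52 log2, against -2.46 ± 0.17 for the other 11. All 11 lay under the level on every array, beside 33.1% of all genes tested. Of the 11, 8 were called below and none above (0 of 11, limma), beside 25.6% and 45.3% of all genes tested. The 3 were the highest of the family, so the other 11 had to have the lower median. Array values overlapped between these groups, with SWEET17 at -0.59 log2 on replicate 3 and SWEET8 at -0.31 on replicate 1. SWEET15, outside the rule, had a mean of -0.91 log2. The grouping by membrane was made after the values were seen and was not tested. Different probes are not equally bright, so heights over background do not order genes by transcript abundance.

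SWEET10 (AT5G50790), which is known as a target of flowering signals in the shoot tip, had signals of 0.686, 4.79 and 1.37 and was called below at -4.50 ± 1.10 log2 (limma adjusted p = 0.000138). SWEET4 (AT3G28007), a hexose transporter, had signals of 1.33, 14.6 and 0.614 and was called below at -4.03 ± 2.35 log2 (limma adjusted p = 0.000491). Both were dim on all arrays and brightest on replicate 2. SWEET13 (AT5G50800), which lies next to SWEET10 with 0 genes between them and belongs to the sucrose transporters of clade III, had signals of 0.982, 20.8 and 1.46 and was also called below (-3.59 ± 2.16 log2).

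Clade III, which holds the sucrose carriers of phloem loading and nectar secretion, had 5 genes among the 33. Of these, 4 were called below (SWEET9, SWEET10, SWEET13 and SWEET14), beside 25.6% of all genes tested, and SWEET11 was not called. SWEET5 and SWEET15, measured under other symbols, are not in these clade counts and are given with the relatives below. SWEET11, which loads sucrose into leaf phloem, had signals of 11.4, 17.0 and 10.0, and lay at -1.58 ± 0.64 log2. SWEET9, the nectary transporter, was brightest on replicate 1 and dimmest on replicate 2, at 2.11 (-2.34 ± 1.94 log2). Of the clade II genes among the 33, SWEET4 and SWEET7 were called below. SWEET6 (-1.52 ± 0.77) and SWEET8 (-1.22 ± 1.10), the latter known from pollen wall formation, were not called. In clade I, SWEET2 stood above and SWEET1 and SWEET3 were called below. The clades hold few genes and were not tested against the shares of all genes tested, 45.3% above and 25.6% below. SWEET1, a glucose transporter of the plasma membrane, had signals of 1.50, 1.51 and 13.6. SWEET3 had the widest spread of the 33 genes, with signals of 0.753, 7.17 and 31.2. With 1 array left out, 3 of these calls were lost: SWEET3 without replicate 1 (-1.65 log2), SWEET7 without replicate 3 (-1.88) and SWEET9 without replicate 2 (-1.30) or 3 (-2.48). SWEET16 was called above without replicate 1 (0.76 log2, limma adjusted p = 0.0458).

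**Figure D3:**
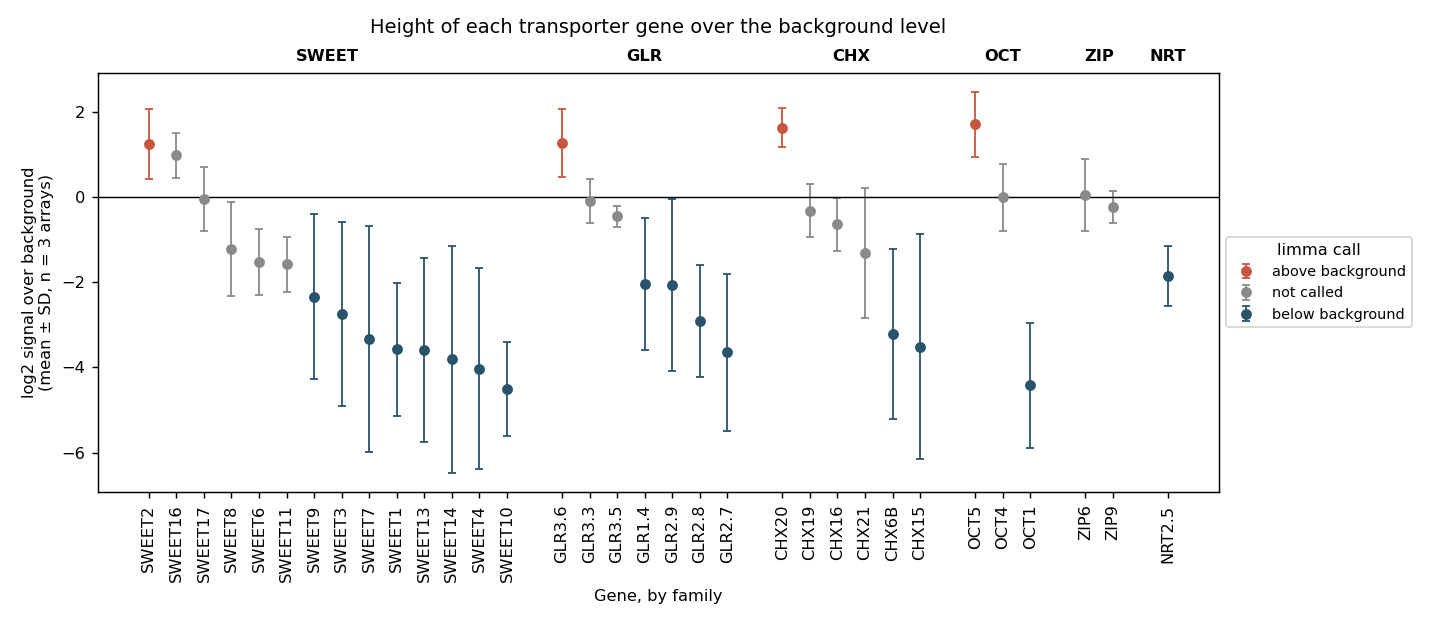
Mean log2 signal over background of each transporter gene with its SD over 3 arrays, coloured by the limma call. Within SWEET, SWEET2 (1.23), SWEET16 (0.97) and SWEET17 (-0.05) had the highest means, and the other 11 lay between -4.50 and -1.22.

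Among glutamate receptor-like genes 1 of 7 was called above and 4 were called below, beside 45.3% and 25.6% of all genes tested (family median -0.88 ± 0.53 log2, SD over arrays, n = 3). GLR3.6 (AT3G51480), which takes part in the electrical signals that follow wounding, had signals of 101, 99.1 and 70.7. It lay above the level of each array, at 1.26 ± 0.79 log2 (2.39-fold, limma adjusted p = 0.0101). It was no longer called when replicate 2 was left out (1.32 log2, limma adjusted p = 0.148), at the 95th percentile (limma adjusted p = 0.0660) or with no trend (limma adjusted p = 0.0548).

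GLR3.3 (AT1G42540), which acts with GLR3.6 in wound signalling, had signals of 31.7, 41.2 and 32.5 and was not called at -0.10 ± 0.51 log2. GLR3.5 (AT2G32390) had signals of 20.0, 33.7 and 29.4 and was not called at -0.46 ± 0.25 log2. The 3 genes of clade 3 thus gave steady signals, each within 2-fold over the arrays (as were 56.7% of all genes tested), although only GLR3.6 was called.

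The 4 genes of clades 1 and 2 among the 33 were all called below, beside 25.6% of all genes tested. Each differed by over 8-fold between arrays, beside 16.8% of all genes tested and 55.7% of all genes called below. GLR1.2, measured under another symbol and so outside the rule, went the other way. Its signals were 26.9, 30.4 and 31.6 (1.17-fold range), and it was not called at -0.33 ± 0.46 log2. GLR2.9, GLR2.8 and GLR2.7 (AT2G29100, AT2G29110 and AT2G29120) lie side by side with 0 genes between them. GLR2.7 had signals of 1.65, 1.08 and 14.9 (-3.64 ± 1.84 log2, limma adjusted p = 0.00128). GLR2.8 had signals of 1.42, 4.88 and 17.7 (-2.91 ± 1.32 log2, limma adjusted p = 0.00657). Both were brightest on replicate 3, whereas their neighbour GLR2.9 was dimmest there, at 2.35 against 14.5 and 20.9, so the cluster did not move as 1 between arrays. GLR1.4, an amino acid-gated channel, was brightest on replicate 2 (32.7) and lay at -2.04 ± 1.55 log2. Only the call of GLR2.7 held whichever array was left out. The others were lost for GLR2.8 without replicate 1 (-2.33 log2), GLR2.9 without replicate 2 (-2.54) or 3 (-0.90) and GLR1.4 without replicate 1 (-1.29) or 3 (-2.00). A probe set that names both GLR2.2 and GLR2.3 was outside the rule and gave signals of 1.32, 1.29 and 1.70.

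In the CHX family 1 of 6 genes was called above, beside 45.3% of all genes tested. The 2 called below (33.3%) were near the share of all genes tested, 25.6%. The family median was -1.06 ± 0.80 log2 (SD over arrays, n = 3). CHX20 (AT3G53720), an endomembrane exchanger known from potassium handling in guard cells, had signals of 98.6, 140.2 and 108. It lay at 1.62 ± 0.46 log2 over background (3.07-fold, limma adjusted p = 0.0004), with all 3 signals more than 2-fold above the highest array level. The call ended without replicate 2 (limma adjusted p = 0.0691), although the value was nearly the same (1.60 log2).

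CHX16 (AT1G64170) had signals of 24.7, 23.0 and 23.9, the narrowest spread of the 33 genes (1.07-fold), and was not called at -0.64 ± 0.62 log2. The ± value there is almost wholly the spread of the background level (SD 0.58 log2). CHX19 (AT3G17630) was not called, with signals of 13.2, 57.8 and 34.5 (-0.33 ± 0.62 log2), and lay above the level on replicate 2 alone. CHX21 (AT2G31910), known from sodium movement in the root endodermis, had signals of 27.1, 17.9 and 6.79 and was not called either (-1.32 ± 1.53 log2).

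CHX15 (AT2G13620) and CHX6B (AT1G08135) were called below, at -3.51 ± 2.63 and -3.22 ± 2.00 log2. CHX15 had signals of 1.77, 26.1 and 0.753, and CHX6B had signals of 1.48, 23.4 and 1.87. Each was bright on replicate 2 compared with the other arrays, by more than 10-fold, and even there stayed under the level of that array. Without replicate 3 neither call held (CHX15 -2.26 log2, limma adjusted p = 0.0788, and CHX6B -2.47 log2, limma adjusted p = 0.0581). Many genes of this family are known from pollen.

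Each of the 3 OCT genes had a different call: 1 above, 1 below and 1 not called, beside 45.3%, 25.6% and 29.1% of all genes tested. OCT5 (AT1G79410), an organic cation transporter of the tonoplast, had the highest value over background of the 33 genes. Its signals were 132, 87.3 and 152.9, and it lay at 1.70 ± 0.76 log2 (3.24-fold, limma adjusted p = 0.000165). It was called above in 14 of 15 alternatives, the exception being the level raised by 1 log2 (0.70 log2, limma adjusted p = 0.127).

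OCT4 (AT3G20660), a close relative also placed in the tonoplast, had signals of 33.8, 58.1 and 25.8 and was not called at -0.01 ± 0.79 log2. OCT1 (AT1G73220), the carnitine transporter of the plasma membrane, had signals of 3.52, 1.35 and 1.11 and was called below at -4.42 ± 1.46 log2 (limma adjusted p = 0.000172). It was dim on every array and was called below in all 14 alternatives in which it was tested.

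Both zinc transporter genes lay near the background level and were not called, beside 29.1% of all genes tested. ZIP6 (AT2G30080) had signals of 41.8, 49.6 and 26.9 and was not called at 0.04 ± 0.85 log2. ZIP9 (AT4G33020), which is induced when zinc is scarce, had signals of 25.2, 28.7 and 43.7 and was not called at -0.24 ± 0.37 log2. The highest array of ZIP9, replicate 3, was the lowest of ZIP6. NRT2.5 (AT1G12940), a high-affinity nitrate transporter known from nitrogen-starved plants, had signals of 5.61, 21.4 and 9.10 and was called below at -1.86 ± 0.71 log2 (limma adjusted p = 0.0497). That call was narrow and was kept in 6 of 14 alternatives. It was lost whichever array was left out, with values from -2.25 to -1.57 log2.

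Genes that hold a name of these families only as a synonym in RefSeq were outside the rule, and 16 such genes were measured. This set was put together after the data were seen. Of the 16, 5 were called above (beside 45.3% of all genes tested), 4 below (beside 25.6%) and 7 were not called (limma), with 11 belonging to the NPF family of nitrate, peptide and hormone transporters. GTR1 (AT3G47960), which carries glucosinolates, had signals of 2357, 2795 and 2515 and lay 6.10 ± 0.49 log2 over background (68.4-fold, limma adjusted p = 8.02e-28, and 8.37e-07 without the variance trend). Its close relative GTR2 (AT5G62680) had signals of 101, 75.1 and 76.0 and lay at 1.16 ± 0.82 log2 (limma adjusted p = 0.0207). AT5G52050, named DTX50 and known as an abscisic acid exporter, had signals of 440, 353 and 309.6 (3.29 ± 0.83 log2, limma adjusted p = 4.88e-17). The NPF genes AT2G26690 and AT3G21670 were the other two above, at 1.23 ± 0.68 and 1.15 ± 0.91 log2. The calls of GTR2 and of these NPF genes were lost when replicate 2 was left out (1.37, 1.51 and 1.29 log2). They were lost too without replicate 1 for GTR2 (0.69) and AT3G21670 (0.64), and without replicate 3 for GTR2 (1.42) and AT2G26690 (1.32). SWEET15, listed as SAG29 and known from senescence, had signals of 18.5, 25.0 and 16.9 and was not called at -0.91 ± 0.60 log2. SWEET5, listed as AtVEX1 and known from pollen, had signals of 1.88, 0.917 and 9.93 and was called below at -3.85 ± 1.67 log2. With these relatives counted in, 9 of 49 genes (the 33 and the 16) were called above, again beside 45.3% of all genes tested.

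A list of other pumps, channels, carriers and regulators of uptake had 10 measured genes, of which 7 were called above, beside 45.3% of all genes tested, and none below (0 of 10, limma), beside 25.6%. No test set these genes against the 33. All 4 pump genes encode subunits of the V-ATPase, the proton pump that energises the tonoplast and the trans-Golgi network, and all were above. VHA-A3, of the tonoplast, had signals of 1270.4, 1250.2 and 1066 (5.00 ± 0.68 log2, limma adjusted p = 6.75e-28, and 3.29e-06 without the variance trend). VHA-A2, of the same membrane, had signals of 285, 142 and 196 (2.42 ± 1.03 log2). VHA-A1, of the trans-Golgi network, had signals of 101, 112 and 113 (1.54 ± 0.49 log2) and was not called without replicate 2 (1.65 log2, limma adjusted p = 0.0598). AT3G58730, the subunit VHA-D, had signals of 677, 625 and 979 (4.32 ± 0.52 log2).

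Of 5 other carriers, 2 were above, near the share of all genes tested (45.3%). TMT1 (AT1G20840), which moves glucose and other sugars into the vacuole, had signals of 459, 403 and 587 and lay at 3.68 ± 0.56 log2 (12.8-fold, limma adjusted p = 1.68e-20). Its relatives TMT2 (87.0, 83.1 and 58.0, 1.01 ± 0.83 log2, limma adjusted p = 0.0520) and TMT3 (30.3, 42.8 and 22.4, -0.28 ± 0.77 log2) were not called. TMT2 was called above in 8 of 15 alternatives, with pseudogenes as background among them (limma adjusted p = 9.59e-05), and its p was highest at the raised level (limma adjusted p = 0.992). MTP11, a manganese transporter of the Golgi, lay at 4.21 ± 0.64 log2, and NRAMP5, of a metal transporter family, was not called at -1.04 ± 0.66. PYE (AT3G47640), a transcription factor of the iron deficiency response, was the single regulator measured, with signals of 166, 81.8 and 178 (1.85 ± 0.97 log2, limma adjusted p = 2.43e-05). No aquaporin and no gene of the channel list was measured.

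The spread between arrays followed the level of the signal. The median SD of log2 signal was 1.03 over the 33 genes, against 0.42 over all genes tested. Among the 4 genes above it was 0.29 (0.23 over all genes called above), among the 13 not called 0.41 (0.58 over all genes not called), and among the 16 below 2.03 (1.70 over all genes called below). In all, 12 of the 33 genes (36.4%) stayed within 2-fold over the arrays, beside 56.7% of all genes tested. Another 12 (36.4%) differed by over 8-fold, beside 16.8% of all genes tested. The latter were 12 of the 16 called below, beside 55.7% of all genes called below. Replicate 2 gave the highest signal for 18 of the 33 genes (54.5%, against 36.8% of all genes tested), replicate 1 for 9 and replicate 3 for 6.

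Across the 33 genes, which are not independent replicates and share arrays and scaling, Pearson's r was 0.61 for replicate 1 with 2, 0.63 for 1 with 3 and 0.54 for 2 with 3. Over all genes tested the same values were 0.87, 0.88 and 0.87.

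**Figure D4:**
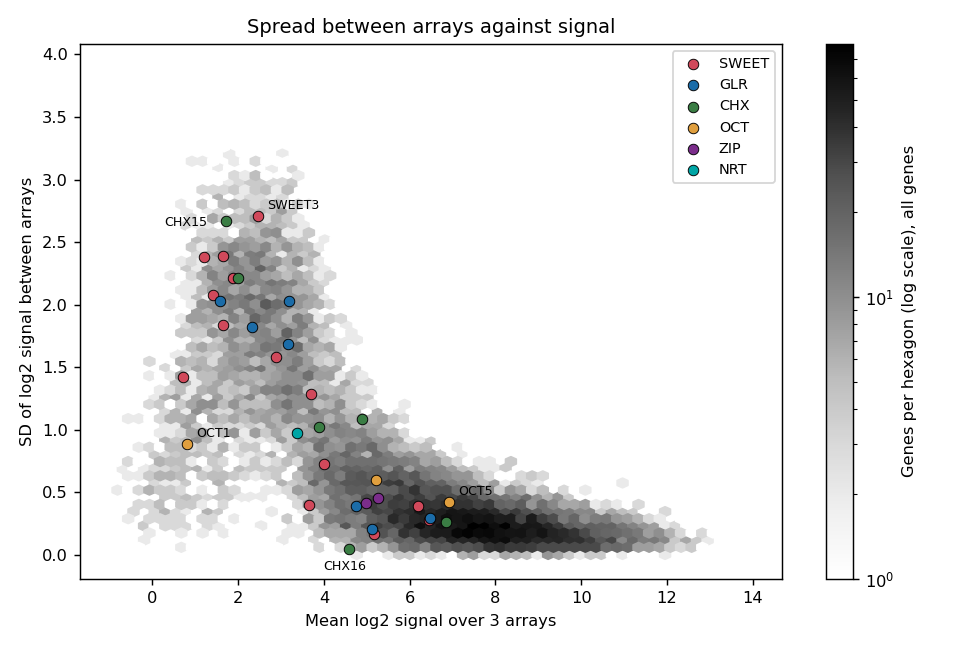
SD of log2 signal between the 3 arrays against the mean log2 signal, for all genes (grey hexagons, darker where more genes lie) and for the 33 transporter genes by family. The dim members, SWEET3 and CHX15 among them, lay in the wide part of the cloud, and OCT5 and the other genes above background lay in its narrow part.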

How the data were processed

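RNA of 3 samples of sorted QC protoplasts was amplified, biotin-labelled and run on 1-colour arrays, 1 per sample. The authors deposited intensity values, as MAS5 signals per probe set. The MAS5 version is not given in the sources used here. The mean after trimming 2% of values from either end was 250.0 on every array, so arrays had been scaled and a change in total RNA cannot be seen. Median signals were 76.9, 81.4 and 81.3. No offset was added before taking log2. The platform annotation gave gene names, brought up to date with RefSeq (TAIR10.1, names and gene order only): of 22810 probe sets, 13513 named 1 gene, of which 13436 matched, all 33 transporter genes among them. Where a gene had several probe sets, their log2 signals were averaged. No probe, transcript or protein sequence was used here.

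The background level of each array was the 90th percentile of ANX1, ANX2, MGH3, A9, AMS and CLV3, which were left out of the tests. The difference of log2 signal and level was tested for departure from 0 with limma 3.58.1 under R 4.3.3 (intercept model, eBayes with trend, two-sided, Benjamini-Hochberg over 13350 genes). limma estimated infinite prior degrees of freedom, by which the trend alone set a gene's variance. The script was tested on simulated data. Families were described by counts and medians and not tested against each other, since their probes differ.

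The members and lists were chosen with earlier results of these data known. Genes named by rule were all members of families of up to 5 genes, the 3 highest and 2 lowest of larger families, those above background, and the 2 highest and 2 lowest of each other list. Further genes, the clade and membrane groupings and the relatives with other symbols were chosen after values were seen. Alternatives were other percentiles, pseudogene or Bacillus control probe sets as background, 1 common level, quantile normalization, an offset of 16, no variance trend, filters on probe sets and dim genes, and leaving out each replicate. Leaving AMS out of the panel and raising the level by 1 log2 were chosen after seeing the data.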

Additional observations from a re-analysis of the deposited data

How the results depend on the processing

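The count of transporter genes above background was 4, with 16 below. It ranged from 1 to 5 leaving out 1 replicate, was 2 at the 95th percentile and 2 without a variance trend, and 0 with the level raised by 1 log2. The share of all genes tested that was called above moved from 45.3% to 45.1%, 38.2% and 41.7% without replicates 1, 2 and 3. That share was 41.6% at the 95th percentile, 42.1% without a trend and 34.5% at the raised level. It was 50.9% at the 75th percentile, 57.0% with Bacillus controls and 51.3% without AMS. The count below ranged from 9 to 13 leaving out 1 replicate. It was 10 (with 5 above) at the 75th percentile, 10 (with 6 above) with Bacillus controls and 9 (with 5 above) without AMS. With dim genes left out it was 0 of the 9 genes left, beside 0.0% of all 7906 genes left. That 0 was set by the filter, which took out the genes that could be called below. The count below was higher at the 95th percentile (19), without a trend (18), with an offset of 16 (20) and at the raised level (22). The share of all genes tested that was called below moved too, from 25.6% at the main level. It was 12.3% at the 75th percentile, 12.8% with Bacillus controls and 11.7% without AMS. It was 31.2% at the 95th percentile, 29.7% without a trend, 31.4% with an offset of 16 and 39.1% at the raised level. Without replicates 1, 2 and 3 that share was 19.6%, 17.0% and 16.7%. SWEET genes above ranged from 0 to 2 leaving out 1 replicate. They were 0 at the 95th percentile, without a trend and at the raised level, and 2 at the 75th percentile, with pseudogenes, Bacillus controls, 1 common level, quantile normalization, an offset of 16, dim genes left out and without AMS, the added gene being SWEET16 each time. GLR genes above were 0 at the 95th percentile, 0 without a trend and 0 at the raised level. Leaving out 1 replicate gave 0 to 1 GLR genes and 0 to 1 CHX genes. CHX and OCT genes above were 0 at the raised level, and 1 ZIP gene (ZIP6) was above with Bacillus controls.

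Direction turned for genes near the level, and none of the turned values passed the test. At the 75th percentile, GLR3.3 lay at 0.81, CHX16 at 0.26, GLR3.5 at 0.44, CHX19 at 0.58, OCT4 at 0.89, SWEET17 at 0.86, ZIP9 at 0.67 and TMT3 at 0.63 log2. With Bacillus controls these genes lay at 0.90, 0.35, 0.53, 0.67, 0.99, 0.95, 0.76 and 0.72, and SAG29 at 0.09. Without AMS they lay at 0.86, 0.31, 0.49, 0.63, 0.94, 0.90, 0.72 and 0.67, and SAG29 at 0.05. With pseudogenes, GLR3.3 lay at 0.31, CHX19 at 0.09, OCT4 at 0.40, SWEET17 at 0.36, ZIP9 at 0.17 and TMT3 at 0.13. ZIP6 lay at -0.38 at the 95th percentile, -0.04 with an offset of 16 and -0.96 at the raised level, where SWEET16 lay at -0.03. OCT4 lay at 0.01 after quantile normalization. Leaving out 1 replicate, values ranged for ZIP6 from -0.36 to 0.49, for SWEET17 from -0.47 to 0.22, for GLR3.3 from -0.36 to 0.15, for OCT4 from -0.27 to 0.45 and for TMT3 from -0.60 to 0.15. The cause was not tested beyond what each alternative's construction gives. The median SD between arrays over the 33 genes was 1.03, and 0.41 with an offset of 16.

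No paired analysis was possible because there is 1 group, so replicate numbers pair nothing. Slide and scan were not used here. The level rests on 6 genes and its spread is shared by every gene.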
